A study of Drosophila melanogaster with 4 samples.

Results

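HDAC3 occupancy in w1118 embryos was profiled with a rat antibody in 2 separate rounds of CUT&Tag, and the comparison here sets the peaks of the second round against those of the first. Members were all peaks of both rat lists on the 6 major arms (X, 4 and both arms of chromosomes 2 and 3), which came to 1038 second-round and 6129 first-round peaks, or 7167 of the 11147 peaks in the 4 lists of the series. Peaks of the lists were joined where they shared at least 1 bp, and a peak was given to the gene with the closest transcription start site (TSS) when that site lay within 1000 bp of its edge. Both groups were whole embryos of the w1118 laboratory strain, 2 to 4 h old, stained with the same kind of rat anti-HDAC3 antibody, and they differed in the round. The first round also held a w1118 library with a rabbit anti-HDAC3 antibody, and the second round was run as a control experiment that also held embryos with maternal HDAC3 shRNA. Each combination is 1 library, so there is no spread between replicates to set a difference against, no difference below was tested across samples, and the round cannot be told apart from anything else that differed between the libraries. Whole embryos mix all cell types of the stage, so that a few cells with much HDAC3 and many with little cannot be told apart.

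HDAC3 is a class I histone deacetylase that works as the catalytic subunit of the SMRTER (Smr) corepressor complex, to which Ebi, the fly TBL1 protein, also belongs. The complex is brought to DNA by sequence-specific repressors, such as unliganded nuclear receptors, and removal of acetyl groups from histones generally goes with lower transcription. In 2- to 4-h-old Drosophila embryos the zygotic genome becomes widely active and the segmentation, dorsoventral and sex determination genes are laid out. CUT&Tag tethers a transposase to the antibody, so that DNA near the protein is cut and tagged for sequencing, and a peak is a stretch where such fragments pile up.

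The sequences that follow let the classes of promoter be read side by side. They are windows of 120 bases from peaks near named genes of each class, outside annotated exons, on the plus strand of assembly release 6 (dm6 coordinates) as in RefSeq. Within each peak the window with the most motif letters is shown, and in its absence the window nearest the midpoint of the peak. Capitals mark GAGAGAG (recognised by GAGA factor), CACACACA, CAGGTAG (Zelda), CAGGTG (Snail), TATAAA, or their reverse complements. Peaks found in both rounds are represented by Mob2 (chr3L:11553417-11553536, 305 bp from the nearest TSS), hth (chr3R:10614422-10614541, 146 bp), grn (chr3R:8181557-8181676, 113 bp) and disco (chrX:16216904-16217023, 154 bp).
Mob2: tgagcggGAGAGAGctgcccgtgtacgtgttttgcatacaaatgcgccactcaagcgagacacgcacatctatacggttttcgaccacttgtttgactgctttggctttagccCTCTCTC
hth: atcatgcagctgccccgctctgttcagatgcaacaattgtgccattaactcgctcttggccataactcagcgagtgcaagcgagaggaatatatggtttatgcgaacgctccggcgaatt
grn: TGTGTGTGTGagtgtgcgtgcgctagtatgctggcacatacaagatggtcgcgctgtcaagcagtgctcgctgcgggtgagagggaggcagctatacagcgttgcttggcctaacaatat
disco: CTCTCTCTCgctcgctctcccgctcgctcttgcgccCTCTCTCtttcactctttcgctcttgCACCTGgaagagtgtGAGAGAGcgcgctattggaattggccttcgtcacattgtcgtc
The 3 second-round-only windows come from the alkaline ceramidase gene bwa (chr2L:20066918-20067037, 527 bp from the nearest TSS), EMC10, a subunit of the endoplasmic reticulum membrane complex (chr3L:21575107-21575226, 550 bp) and snoRNA:kis-a (chr2L:231828-231947, 306 bp), and not from stronger peaks such as that of Crtc, which left no exon-free window of this length. Their peaks were of middle or low rank in the second round, at fold percentile 61.6 for bwa, 40.8 for EMC10 and 35.2 for snoRNA:kis-a, whereas the peaks of the other windows were at 98.9 or above, so the windows differ in strength as well as in class.
bwa: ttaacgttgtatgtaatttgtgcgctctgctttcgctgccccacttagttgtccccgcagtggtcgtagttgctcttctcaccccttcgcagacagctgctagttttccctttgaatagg
EMC10: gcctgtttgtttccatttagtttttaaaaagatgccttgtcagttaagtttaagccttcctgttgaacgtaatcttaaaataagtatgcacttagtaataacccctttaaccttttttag
snoRNA:kis-a: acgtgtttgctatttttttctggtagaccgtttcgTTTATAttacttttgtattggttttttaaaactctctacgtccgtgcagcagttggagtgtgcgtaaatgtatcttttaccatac
The 4 first-round-only windows come from svp (chr3R:12280942-12281061, 49 bp from the nearest TSS), Blimp-1 (chr3L:5630698-5630817, 166 bp), ems (chr3R:13901675-13901794, 59 bp) and wg (chr2L:7306880-7306999, 160 bp).
svp: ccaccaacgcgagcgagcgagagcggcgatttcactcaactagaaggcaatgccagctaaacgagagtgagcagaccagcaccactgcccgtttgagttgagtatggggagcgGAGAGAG
Blimp-1: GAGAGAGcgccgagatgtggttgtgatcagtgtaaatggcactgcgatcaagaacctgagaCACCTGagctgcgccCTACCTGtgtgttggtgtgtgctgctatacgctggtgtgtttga
ems: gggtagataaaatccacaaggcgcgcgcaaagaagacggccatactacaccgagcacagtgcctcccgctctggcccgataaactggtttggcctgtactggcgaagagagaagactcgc
wg: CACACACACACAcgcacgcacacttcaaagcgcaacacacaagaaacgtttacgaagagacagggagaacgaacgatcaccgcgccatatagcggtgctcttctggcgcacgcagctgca
The disco window held 4 GAGAGAG matches, counted with overlaps, and the Mob2 window 2, whereas the hth and ems windows held none of the motifs. The counts of motifs over all peaks are given at the end.

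Most second-round peaks had a counterpart in the first round, while most first-round peaks had none in the second. There were 1000 joined pairs, made up of 954 second-round peaks (91.9% of 1038, 95% exact binomial interval 90.1 to 93.5) and 1000 first-round peaks (16.3% of 6129, 15.4 to 17.3). The other 84 second-round peaks (8.09%, 6.51 to 9.92) and 5129 first-round peaks (83.7%, 82.7 to 84.6) stood in 1 list only. The intervals cover counting error over peaks, which are not replicates. The first-round list was 5.90 times as long as the second-round list, and the share of second-round peaks with a counterpart depended on that length. Against only the 1038 first-round peaks of highest fold, 37.4% of second-round peaks were joined, and against the 1038 of highest −log10 q, 49.2%. A reciprocal overlap of 50% gave 61.1% of second-round and 10.3% of first-round peaks.

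Joined peaks were wide and mostly nested. Second-round peaks found in both rounds had a median width of 517 bp, against 709.5 bp for their first-round counterparts. In 511 of the 1000 pairs the second-round peak lay wholly inside the first-round peak, in 71 pairs the first-round peak lay inside the second-round one, and in 301 pairs the second-round peak was the wider. A single first-round counterpart was found for 912 second-round peaks, and 40 overlapped 2. The nearest TSS belonged to the same gene for both peaks in 949 pairs. Second-round-only peaks had a median width of 335 bp and first-round-only peaks one of 354 bp.

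How strong a first-round peak was went with whether the second round held it. Strength was read as the fold enrichment over local background given for each peak, used only to rank peaks within a list, with the percentile 100 at the top. Among first-round peaks, 35.5% of the strongest quintile (435 of 1226, interval 32.8 to 38.2) were found in the second round, against 7.50% of the weakest quintile (92 of 1226, 6.09 to 9.12). The quintiles between them, from weaker to stronger, gave 6.69%, 12.4% and 19.5%. Ranked by −log10 q in place of fold, the strongest quintile gave 47.0% and the weakest 2.94%. In the other direction there was little slope, since 97.6% of the strongest quintile of second-round peaks and 94.2% of the weakest were found in the first round, and the middle quintile gave 86.1%.

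At the top of each list, the counterparts were counted in the whole of the other list. A second-round peak had 5.90 times as many possible counterparts as a first-round peak, so the counts of one list cannot be read against those of the other. All 50 second-round peaks of highest fold had a first-round counterpart, and 97 of the top 100 did. Of the first-round peaks of highest fold, 8 of the top 10, 34 of the top 50 and 61 of the top 100 had a second-round counterpart. Over the 1000 pairs the fold in the second round and that in the first had a Spearman rho of 0.43 and, on the log2 scale, a Pearson r of 0.50. This is a description over pairs, which share the sequence and the antibody, and peaks that stand in several pairs count more than once. Both peaks were in the top quintile of their list in 156 pairs. The second-round peak was in its top quintile in 212 pairs, of which 22 had a first-round peak in the lower 50% of its list. The first-round peak was in its top quintile in 435 pairs, of which 143 had a second-round peak in the lower 50%. The 22 and the 143 pairs cannot be set against each other directly, because the margins differ. Of the peaks found in both rounds, 49.8% of second-round and 24.1% of first-round peaks were in the lower 50% of their list.

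**Figure D1:**
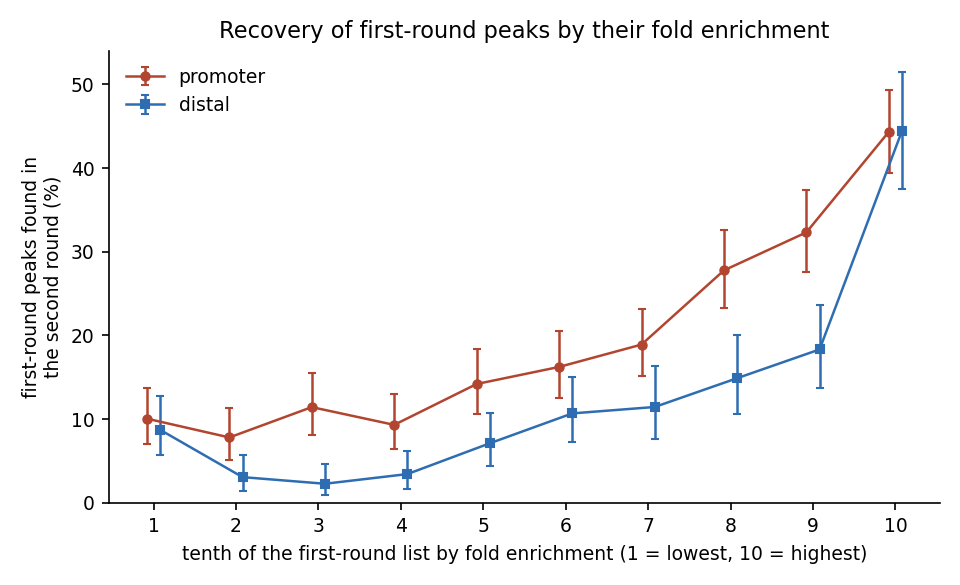
Share of first-round peaks found in the second round (y axis, percent) by decile of the first-round list in fold enrichment (x axis), for promoter peaks (circles) and distal peaks (squares), with 95% exact binomial intervals as bars. The share is highest in the top decile for both kinds, and distal peaks lie below promoter peaks in deciles 1 to 9.

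Promoter peaks were found again more often than distal ones. In the second round, 94.8% of promoter peaks (680 of 717, interval 93.0 to 96.3) had a first-round counterpart, as did 91.9% of intronic (170 of 185), 85.0% of intergenic (85 of 100) and 52.8% of exonic peaks (19 of 36, 35.5 to 69.6). In the first round, 20.1% of promoter peaks (703 of 3500), 13.8% of intronic (179 of 1301), 12.2% of intergenic (94 of 771) and 4.31% of exonic peaks (24 of 557) had a second-round counterpart. Promoter peaks of the first round had a median fold of 3.80 and distal ones 3.62, and within quintiles of fold promoter peaks were also found more often, though not at the very top nor among strong peaks of like rabbit status. In the strongest quintile, 38.7% of first-round promoter peaks (interval 35.2 to 42.2) and 30.1% of distal peaks (25.96 to 34.6) were found in the second round. In the weakest quintile the shares were 8.97% of promoter and 5.81% of distal peaks, with overlapping intervals. In the top decile they were 44.3% of promoter and 44.4% of distal peaks. Among peaks of the strongest quintile that overlapped a peak of the rabbit library, 44.9% of promoter and 45.1% of distal peaks were found in the second round, and among those without such an overlap, 11.8% of promoter and 14.3% of distal peaks. At a given rabbit status promoter peaks of the strongest quintile were therefore not found more often than distal ones. In the weakest quintile the shares were 14.6% of promoter and 21.9% of distal peaks with a rabbit overlap, and 6.15% of promoter and 3.77% of distal peaks without one, with overlapping intervals in both cases.

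Seen by class, second-round peaks found in both rounds were at promoters in 71.3% of cases (680 of 954, interval 68.3 to 74.1), against 44.0% of second-round-only peaks (37 of 84, 33.2 to 55.3). First-round peaks found in both rounds were at promoters in 70.3% of cases, against 54.5% of first-round-only peaks (2797 of 5129, 53.2 to 55.9). Exons outside promoters held 20.2% of second-round-only peaks and 10.4% of first-round-only peaks, against 1.99% of second-round and 2.40% of first-round peaks found in both. Introns differed little between the classes, with 17.8% of second-round peaks found in both, 17.9% of second-round-only peaks and 21.9% of first-round-only peaks. With a reciprocal overlap of 50% the promoter share of second-round-only peaks was 68.8% of 404 peaks, so the low share belongs to the 84 peaks with no overlap at all.

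Promoter peaks also differed in where they sat. Among promoter peaks, 51.6% of second-round peaks found in both rounds covered a TSS, against 27.03% of second-round-only ones (10 of 37, interval 13.8 to 44.1). The midpoint of the peak lay upstream of the TSS in 338 of 680 second-round promoter peaks found in both rounds, so that about as many lay to either side of it. For the 37 second-round-only promoter peaks the midpoint was upstream in 6 and the median offset was 273 bp downstream, within the transcribed part. Among first-round promoter peaks, 72.0% of those found in both rounds covered a TSS (506 of 703, 68.5 to 75.3), against 58.3% of first-round-only ones. The first-round-only promoter peaks had a median offset of 36 bp downstream. Peaks found in both rounds were also wider, and the part of width in these shares was not tested.

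**Figure D2:**
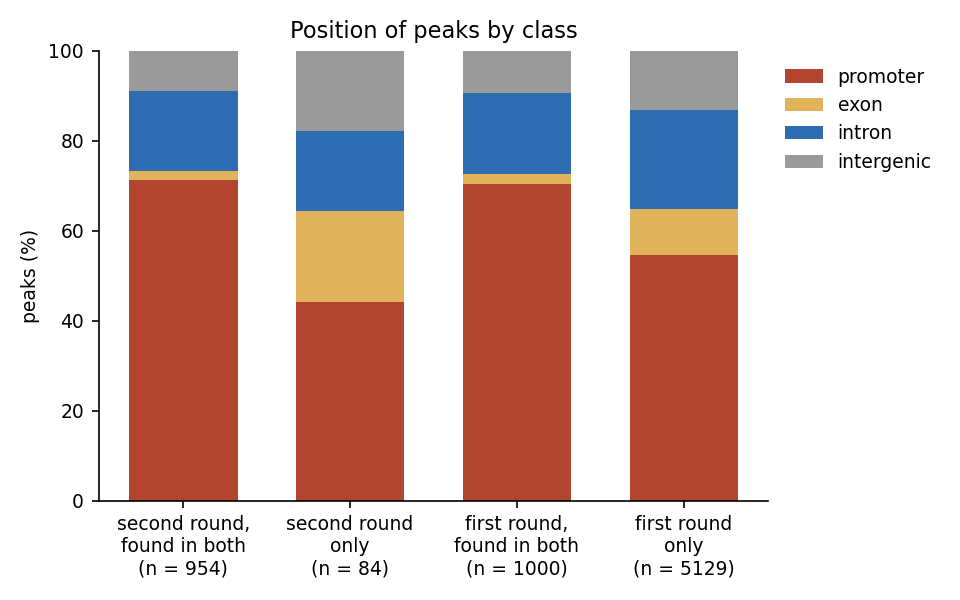
Share of peaks (y axis, percent) at promoters, in exons, in introns and between genes, for second-round peaks found in both rounds, second-round-only peaks, first-round peaks found in both rounds and first-round-only peaks (x axis, with the number of peaks). Second-round-only peaks have the smallest promoter share, 44.0%, and the largest exon share, 20.2%.

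The rabbit library was not used in the joining, but it belongs to the same round as the first rat list. Second-round-only peaks lack a first-round rat peak by definition, so their overlap with rabbit peaks is not an independent check of the class. Peaks found in both rounds were also wider, and the part of width in an overlap of 1 bp was not tested. A rabbit peak overlapped 79.0% of second-round peaks found in both rounds (754 of 954, interval 76.3 to 81.6), but 14.3% of second-round-only peaks (12 of 84, 7.61 to 23.6). Among first-round peaks it overlapped 77.6% of those found in both rounds and 32.9% of first-round-only peaks. Read the other way, 31.5% of first-round rat peaks with a rabbit counterpart were found in the second round, against 6.11% of those without. The split was also present among strong peaks. Within the strongest quintile by fold, 44.9% of first-round peaks with a rabbit counterpart (386 of 859, interval 41.6 to 48.3) and 13.4% of those without (49 of 367, 10.0 to 17.3) were found in the second round. In the weakest quintile, 16.3% of those with a rabbit counterpart were found (12.2 to 21.1) and 4.88% of those without. The HDAC3 shRNA list held 18 peaks on the arms. It overlapped 1.47% of second-round peaks found in both rounds (14 of 954) and a similar 1.19% of second-round-only peaks (1 of 84). At least 50% of the bases were repeat-masked in 1.68% of second-round peaks found in both rounds and in 7.14% of second-round-only peaks.

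At the level of genes, 713 genes had a peak in both rounds, 34 had a second-round peak only and 2474 a first-round peak only. Of the 18164 annotated genes on the arms, 3.93% were thus in both rounds, 0.187% in the second only and 13.6% in the first only. A gene was counted in both when a joined peak of either list had it as nearest. Counted in this way, 750 genes (4.13%) had a second-round peak and 3190 genes (17.6%) a first-round peak, 22.4% of the 3190 being in both rounds. Of the 3190, 3152 were themselves the nearest gene of a first-round peak. For 3 more genes, among them the Hox gene Antp, each list held a peak but at different places. At Antp the second-round peak covered the TSS at chr3R:6999228 and the first-round peak the one at chr3R:6932840. Genes with a peak in both rounds were long, with a median length of 7420 bp, against 2485.5 bp for second-round-only, 3759.5 bp for first-round-only and 1435 bp for genes with neither. A gene of both rounds had 2 or more TSSs in 52.0% of cases, against 29.4% of second-round-only, 40.1% of first-round-only and 16.5% of genes with neither. Longer genes with more TSSs offer more room for a peak, and the part of that in these counts was not tested.

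Of the 10 genes whose peaks ranked highest in both rounds, 6 have an assigned name. Mob2, a partner of NDR-family kinases, led by mean percentile, with a fold of 6.58 in the second round and 10.4 in the first, at percentile 99.3 in the second round and 99.9 in the first. The homeodomain gene hth, whose product pairs with Extradenticle, had folds of 6.63 in the second round and 9.06 in the first, and its peaks began at the same base, chr3R:10614212. Next among named genes was grn, which encodes a GATA factor, with folds of 6.57 in the second round and 9.91 in the first. The zinc finger gene disco had a fold of 6.23 in the second round and 8.28 in the first. The cell surface protein gene sas had 5.86 in the second round and 8.42 in the first, and ben, which encodes a ubiquitin-conjugating enzyme and whose second-round peak lay 1018 bp from the TSS, 5.65 in the second round and 9.44 in the first. The remaining 4 of the 10 leading genes are noncoding RNA genes without an assigned name, 2 of which share a pair of peaks. The peaks of these 10 genes were at or above percentile 97.4 in the second round and 99.1 in the first. Levels of fold are not comparable between the lists: over whole lists the medians were 3.71 in the second round and 3.71 in the first, whereas the joined peaks, which were high-ranking ones in the first round, had medians of 3.71 in the second round and 4.47 in the first.

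Among distal pairs the strongest lay in repeats. A peak in an intron of Pzl, 93220 bp from the nearest TSS, had the highest fold of both lists on the arms, 15.2 in the second round and 20.3 in the first, and 81.1% of the bases of the second-round peak were repeat-masked. Among peaks with fewer repeats, an intronic peak of sim, the master gene of the ventral midline, had folds of 6.09 in the second round and 8.85 in the first, and an intronic peak near ci, the transcription factor of the Hedgehog pathway, had folds of 5.73 in the second round and 6.39 in the first. An intronic peak 7212 bp from the nearest TSS of tara was stronger by rank in the second round, at percentile 96.2, against 79.5 in the first.

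Second-round-only peaks had a median percentile of 48.6, against 50.2 for second-round peaks found in both rounds. They lay closer to the middle of the list, with quartiles of 32.3 and 61.8, against 24.3 and 76.4 for those found in both. The highest gene with a second-round peak only was Crtc, a coactivator of CREB, whose peak had a fold of 4.81 at percentile 91.8 and also overlapped a rabbit peak. The kinesin gene Khc-73 had a fold of 4.73 and percentile 90.9, and the nearest first-round peak lay 657 bp away. Below them came Jheh1, a juvenile hormone epoxide hydrolase (percentile 71.4), tRNA:Arg-ACG-1-1 (68.6), loopin-1, a mitochondrial sperm peptidase (67.97), and the kinase gene Pitslre (61.7). The other 4 of the 10 are protein-coding genes without an assigned name. No second-round-only peak exceeded a fold of 4.87, and 3 of the 84 were in the top decile of their list. The gap to the nearest first-round peak had a median of 5019.5 bp and was under 1000 bp for 9 peaks. At the border, the smallest gap was 70 bp, near 28SrRNA-Psi:CR45859, followed by 185 bp at MED25, a Mediator subunit gene, and 425 bp in an exon of stan, a cadherin gene of planar polarity. Just inside it, the pairs with the smallest overlap shared 9 bp, at Taf5, 18w and Csp. The peak numbers of the first-round list skip values, and 38.1% of second-round-only peaks lay between first-round peaks with a skipped number between them, where 35.9% of the length between peaks lies. The first-round list may thus be incomplete, and second-round only means without a counterpart among the first-round peaks used here.

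Genes with a first-round peak only included patterning genes of the highest rank. The nuclear receptor gene svp had a fold of 8.90 at percentile 99.6, and the nearest second-round peak lay 144767 bp away. Blimp-1, a zinc finger repressor, had 8.80, the head gap gene ems 8.76 and the Wnt ligand gene wg 8.57, all covering a TSS and at percentiles of 99.5 or 99.6. At wg the nearest second-round peak was 87319 bp away, and at ems 81565 bp. The adenylyl cyclase gene Ac78C (8.44) and danr, which encodes a nuclear protein of antennal development (8.35), were the other named genes among the 10. The rest of the 10 are protein-coding genes without an assigned name. The highest of all 10 was among them, with a fold of 10.2 at percentile 99.9. A rabbit peak overlapped 9 of these 10 first-round peaks, with Ac78C as the exception. Such an overlap is common among strong first-round peaks, since 859 of the 1226 in the strongest quintile had one.

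Some genes held peaks in both rounds at opposite ends of the ranking. The gene trx, which encodes the founding Trithorax methyltransferase, was at percentile 97.0 in the second round and 25.9 in the first, with folds of 5.58 in the second round and 3.33 in the first. The signalling gene rau was at 88.9 in the second round and 17.5 in the first, and the adenylate kinase gene Adk2 at 88.7 in the second round and 17.99 in the first. In the opposite direction, tara was at percentile 5.25 in the second round and 97.0 in the first, with folds of 3.10 in the second round and 6.82 in the first. The zinc finger gene jing was at 2.17 in the second round and 92.8 in the first. The chaperone gene Csp was at 9.30 in the second round and 93.5 in the first, and the repressor gene zfh1 at 15.8 in the second round and 97.5 in the first. The signal recognition particle RNA gene 7SLRNA:CR32864 was at 4.19 in the second round and 85.6 in the first. At tara the second-round peak spanned chr3R:16241113-16242784 and the first-round peak chr3R:16242387-16242846, so the fold of the second-round peak averages over a region several times as wide. The part of width in these rank differences was not tested.

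**Figure D3:**
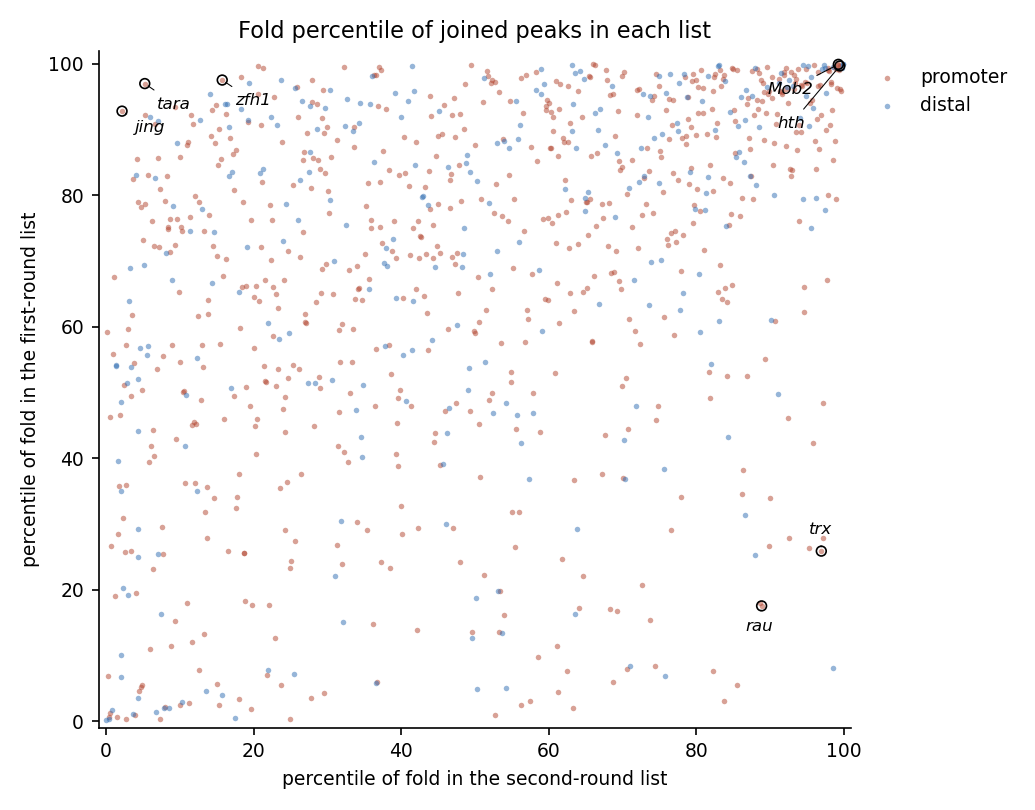
Percentile of fold in the second-round list (x axis) and in the first-round list (y axis) for the 1000 joined pairs, coloured by promoter or distal position of the second-round peak. Named genes are circled: Mob2 and hth rank high in both lists, trx and rau high in the second round and low in the first, and tara, zfh1 and jing the other way round.

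Genes of the HDAC3 complex and the study's example genes split across the classes. No peak of either list lay within 1000 bp of the TSS of HDAC3 as the nearest. Smr had a first-round promoter peak without a second-round counterpart, with a fold of 5.96 at percentile 93.6, but intronic peaks of Smr were joined, the stronger at percentile 82.5 in the second round and 89.9 in the first. The ebi promoter had a first-round peak only (fold 3.65, percentile 47.3). Both sd, the TEAD factor of the Hippo pathway, and the cadherin gene Cad99C had promoter peaks in both rounds. The leading sd pair had folds of 5.19 in the second round and 8.21 in the first, and a second sd pair lay at another TSS, with 3.91 in the second round and 4.33 in the first. At Cad99C the folds were 4.94 in the second round and 6.57 in the first.

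Patterning genes were held in both rounds far more often than genes at large. Of 107 genes in 8 patterning lists, 38 (35.5%) had a peak in both rounds, 51 a first-round peak only and 17 neither, and Antp had separate peaks, against 3.93% of all genes in both rounds. In the first round alone, 83.2% of these genes were themselves the nearest gene of a peak, against 17.4% of all genes. Among genes with such a first-round peak, 41.6% of patterning genes (37 of 89, interval 31.2 to 52.5) and 21.4% of all genes (675 of 3152, 20.0 to 22.9) had a peak in both rounds. In the strongest quintile of first-round peaks the shares were 54.8% of patterning genes (23 of 42, 38.7 to 70.2) and 41.0% of all genes (305 of 744, 37.4 to 44.6), with overlapping intervals. Genes of a list are not replicates, and the lists were drawn up by role with earlier results of these data known.

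The gap genes, which divide the early embryo into broad regions, had 5 of 12 in both rounds and the other 7 in the first only. The head gap gene btd had a fold of 3.95 in the second round, at percentile 66.0, and 12.02 in the first, at percentile 99.9, and oc (orthodenticle) had 4.66 in the second round and 6.38 in the first. The first-round-only genes of this list were Kr, hb, gt, kni, tll, cnc and ems. The pair-rule genes had 4 of 9 in both rounds, namely hry, opa, prd and run. The primary pair-rule gene run ranked high in both lists, at percentile 98.5 in the second round and 85.3 in the first, while ftz, odd, slp1 and slp2 had a first-round peak only. Of 18 segment polarity genes, 7 were in both rounds and 8 in the first only. The homeobox gene en had folds of 4.49 in the second round and 8.10 in the first, and the ligand gene hh 4.15 in the second round and 7.62 in the first. H15, a T-box gene, had 4.44 in the second round and 8.38 in the first, whereas wg, ptc (6.71) and fz (6.77) had first-round peaks only. Of the 8 Hox genes only Abd-B had a joined peak, with folds of 5.05 in the second round and 6.71 in the first, and Dfd, lab, Ubx, Scr, pb and abd-A had first-round peaks only.

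Along the dorsoventral axis, 5 of 11 mesoderm genes, 6 of 18 neuroectoderm genes and 5 of 20 dorsal ectoderm and Dpp pathway genes were in both rounds. The mesoderm repressor gene sna was at percentile 18.7 in the second round and 25.6 in the first, and Mef2, the muscle differentiation factor, at 21.3 in the second round and 99.4 in the first. The activator twi had a first-round peak only (percentile 58.2). In the neuroectoderm D, a Sox factor, was at 96.4 in the second round and 91.7 in the first, brk, the repressor of Dpp targets, at 88.8 in the second round and 97.6 in the first, and vnd at 87.0 in the second round and 94.9 in the first. The proneural genes ac, l(1)sc and sc and the Dpp antagonist sog had first-round peaks only. Among dorsal genes tup was at 88.4 in the second round and 93.1 in the first, while dpp, zen and pnr had first-round peaks only, at percentiles 91.0, 85.5 and 82.3. The E(spl) complex, whose genes respond to Notch, had 5 of 11 in both rounds, all at or below percentile 45.0 in the second.

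Of 72 genes for chromatin proteins and receptors in 4 lists, 17 (23.6%) had a peak in both rounds, against 3.93% of all genes. Among those with an assigned first-round peak the share was 40.5% (17 of 42, interval 25.6 to 56.7), against 21.4% of all such genes. In the strongest quintile of first-round peaks it was 46.2% (6 of 13, 19.2 to 74.9), against 41.0% of all genes (37.4 to 44.6), with overlapping intervals. Of 15 histone deacetylase and corepressor genes, 4 had a peak in both rounds, namely HDAC1, Sin3A, Sirt1 and gro, and 7 in the first round only. The HDAC1 pair was at percentile 95.2 in the second round and 26.3 in the first, and the nearest TSS of its second-round peak belonged to a neighbouring gene. Of 19 Polycomb group genes, 5 were in both rounds, with ph-d at percentile 74.2 in the second round and 95.1 in the first, and ph-p, Psc and Su(z)2 among the rest. Nuclear receptor genes had 6 of 21 in both rounds. The ecdysone receptor gene EcR was at 80.5 in the second round and 77.6 in the first, and svp, tll, eg and Hr78 had first-round peaks only. Of 17 genes for pioneer, promoter and insulator factors, Trl, which encodes GAGA factor, and BEAF-32 were in both rounds and 7, with zld and Clamp among them, in the first only. The Hippo pathway had 3 of 13 in both rounds (sd, ds and kibra), and the sex determination list 3 of 8, with Sxl at percentile 64.1 in the second round and 17.3 in the first.

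Most genes had no peak in either round (82.3% of all genes), and the remaining lists are read beside that share. Of 191 genes for cytosolic and mitochondrial ribosomal proteins and proteasome subunits, 167 had neither, 3 (1.57%) had a peak in both rounds, against 3.93% of all genes, 20 in the first only and 1 in the second only, which was RpS9 at percentile 19.9. Of 309 chemosensory receptor and cuticle protein genes, 305 had neither and 1, Gr2a, had a peak in both rounds and 3 in the first only. Transfer RNA genes had 245 of 295 in neither, 5 in both rounds, 44 in the first only and 1 in the second only, and microRNA genes 3 of 260 in both and 8 in the first only. The strongest transfer RNA gene of both rounds was tRNA:Ala-TGC-2-1, with folds of 6.01 in the second round and 5.85 in the first. Transfer RNA and heat shock genes exist in near-identical copies, so reads of one copy may have been placed at another. Of the remaining lists, cellularization and gastrulation genes had 3 of 13 in both rounds, early cell cycle genes 1 of 12 (CycA) and heat shock genes 1 of 13 (Hsp70Ab).

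**Figure D4:**
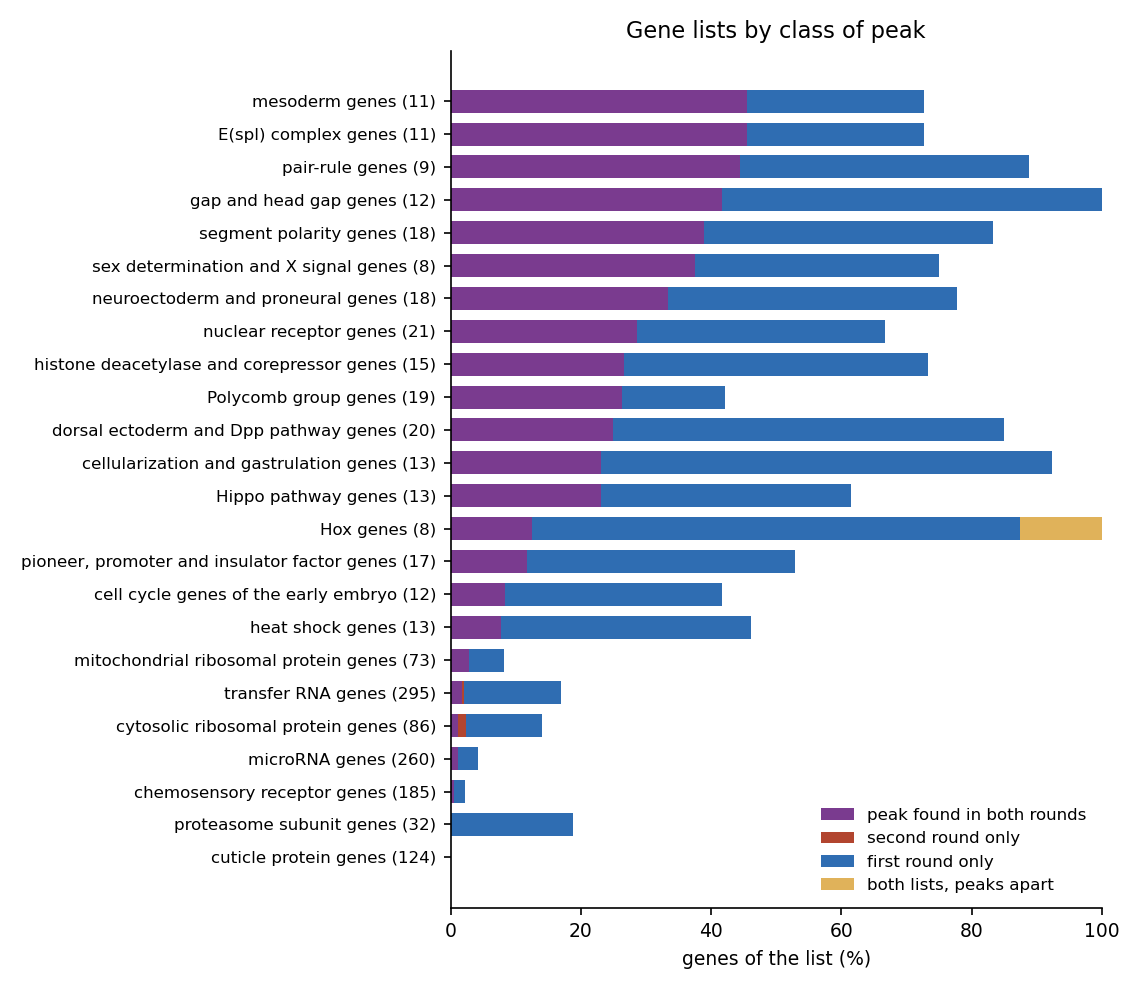
Share of the genes of each list (x axis, percent) with a peak found in both rounds, in the second round only, in the first round only, or in both lists at different places, for 24 lists (y axis, number of genes in parentheses). The highest shares in both rounds are those of mesoderm and E(spl) genes, at 45.5% for each list. The patterning lists do not all stand at the top, since dorsal ectoderm genes are at 25% and Hox genes at 12.5%, below sex determination genes at 37.5%. Cuticle protein genes have no peak.

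Peaks found in both rounds held GAGA and CA repeat letters more often than peaks of 1 list. Motifs were searched on both strands in 200 bp around the midpoint of each peak. The GAGA factor motif GAGAGAG was in 16.6% of second-round peaks found in both rounds (interval 14.3 to 19.1), against 3.57% of second-round-only peaks (3 of 84, 0.743 to 10.1). For first-round peaks the shares were 16.5% in those found in both rounds and 9.71% in first-round-only peaks (8.91 to 10.6). The windows from 150 bp before to 50 bp after all 23998 TSSs held it in 5.25% of cases, and windows 2000 bp to either side of second-round peaks in 3.37%. The CA repeat CACACACA followed the same order, with 17.6% of second-round peaks found in both rounds, 4.76% of second-round-only peaks, 18.6% of first-round peaks found in both rounds and 10.7% of first-round-only peaks, against 4.22% at all TSSs. Second-round-only peaks were therefore near the flanking level for both motifs, where the CA repeat was in 4.87% of windows, although 84 peaks leave wide intervals. Among first-round peaks of the strongest quintile, GAGAGAG was in 18.6% of those found in both rounds and 16.8% of first-round-only peaks, with overlapping intervals. CACACACA was in 22.1% of peaks found in both rounds (18.3 to 26.3) and 15.3% of first-round-only peaks (12.9 to 17.998) of that quintile. In each weaker quintile GAGAGAG was also more frequent in peaks found in both rounds. From weakest to second strongest, 15.2%, 10.98%, 15.8% and 15.5% of these peaks held it. The first-round-only shares were 6.97%, 6.99%, 9.60% and 10.4%, with overlapping intervals in each quintile. The GAGAGAG difference thus kept its direction in each quintile. Overlap of intervals is not a test of a difference, and the difference within quintiles was not tested.

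Over all peaks, the motif of Zelda, the pioneer factor of the early embryo, was about as frequent in peaks found in both rounds as in first-round-only peaks. CAGGTAG was in 4.82% of second-round peaks found in both rounds, in 1.19% of second-round-only peaks (1 of 84, interval 0.0301 to 6.46) and in 5.34% of first-round-only peaks, against 1.14% at all TSSs. Within the strongest quintile of first-round peaks it was in 7.36% of those found in both rounds and 7.71% of first-round-only peaks. In the second strongest quintile it was rarer in those found in both rounds, at 2.09% (5 of 239, 0.683 to 4.81), against 7.50% of first-round-only peaks (5.93 to 9.32). In each other quintile the intervals overlapped. The motif also differed by position, and peaks found in both rounds were more often at promoters. It was in 2.99% of promoter and 8.75% of distal first-round peaks found in both rounds. For first-round-only peaks the shares were 3.72% at promoters and 7.29% at distal sites. The part of position in the quintile values was not tested. The Snail core CAGGTG was in 7.02% of second-round peaks found in both rounds and 9.03% of first-round-only peaks (interval 8.26 to 9.84), against 6.50% at all TSSs (6.19 to 6.82), and the Bicoid core TAATCC in 4.30% of the same second-round peaks and 6.32% of first-round-only peaks, against 5.62% at all TSSs. Motifs of housekeeping promoters were rarer than at TSSs in general. The DREF motif TATCGATA was in 0.839% of second-round peaks found in both rounds and 1.07% of first-round-only peaks, against 5.77% at all TSSs, and the M1BP core GGTCACAC in 1.68% of the same second-round peaks and 1.74% of first-round-only peaks, against 5.01% at all TSSs. Among promoter peaks alone, DREF letters were in 0.882% of second-round peaks found in both rounds and 1.79% of first-round-only peaks. M1BP letters were in 2.21% and 2.79% of the same promoter peaks. Flanks of second-round peaks held DREF letters in 0.434% and M1BP letters in 0.386% of windows. The TATA box letters TATAAA were in 14.4% of second-round peaks found in both rounds and 13.6% of first-round-only peaks, against 29.0% at all TSSs. A match describes the letters only. Windows around peak midpoints and windows fixed on a TSS differ in position, and the classes include distal peaks, so the comparison with all TSSs is approximate.

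**Figure D5:**
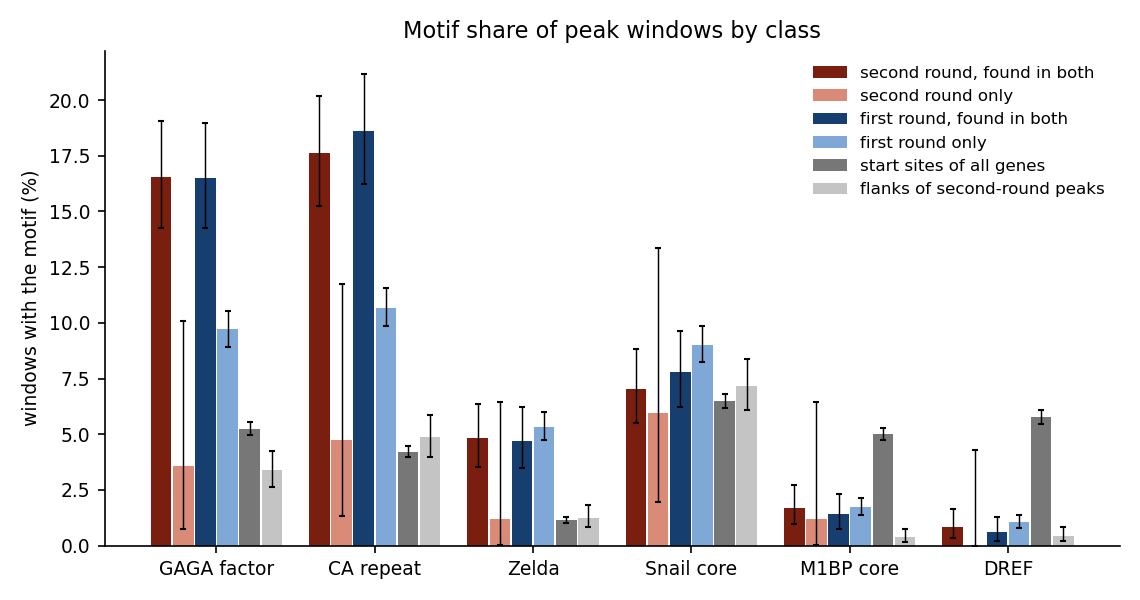
Share of 200 bp windows with each motif (y axis, percent, with 95% exact binomial intervals) for the 4 classes of peak, for the start sites of all genes and for flanks of second-round peaks, at 6 of the 8 motifs (x axis). GAGA factor and CA repeat letters are most frequent in peaks found in both rounds, at 16.6% (GAGA) and 17.6% (CA repeat) of second-round peaks, and the Zelda letters differ little between peaks found in both rounds and first-round-only peaks.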

How the data were processed

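CUT&Tag libraries of w1118 embryos with the rat HDAC3 antibody were compared between rounds, with 1 library per round. The authors used Trim Galore on the paired-end reads, Bowtie2 with the dm6 assembly, MACS2 to call peaks and ChIPseeker to annotate them. Versions, peak calling options and any control library are not given in the sources used here. The fold enrichment deposited for each peak is a ratio to local background, averaged over the peak. The p- and q-values were deposited as −log10, with lowest −log10 q of 1.60 in each list. The score deposited for each peak was not used. Depth is unknown, since the lists carry no read numbers.

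Gene models were Ensembl release 115 without transposable elements (promoter, then exon, intron and intergenic), and sequences came from RefSeq. Starts were converted to 1-based positions. Overlaps and exact Clopper-Pearson intervals used scipy 1.17.1, pandas 2.3.3 and numpy 2.4.6 under Python 3.11.15, and figures matplotlib 3.10.9. Joining and TSS assignment were tested on simulated data. With 1 library per round no test across samples was possible, and no p-value is given. The members, the 24 gene lists and the motifs were chosen with earlier results of these data known. Only 1 symbol of the lists was unmatched. Genes were named by rule: the 10 of highest mean percentile in both rounds, the 10 of highest percentile in each round only, the 5 largest rank differences in each direction, the HDAC3 complex, sd and Cad99C, and up to 4 members of each class per list, and the text adds first-round-only members by name. Genes without an assigned name were counted only. Alternatives varied the overlap, threshold, list length, TSS window and gene models.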

Additional observations from a re-analysis of the deposited data

How the results depend on the processing

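Over 65 values of 10 results under other settings, 30 stayed within the counting interval or within 1.5 times the count, and 35 moved. The share of second-round peaks found in the first round, 91.9%, was 61.1% with reciprocal overlap of 50%, 88.2% with all sequences of the assembly, and 37.4% by fold or 49.2% by −log10 q with an equally long first-round list. The share of first-round peaks found in the second round, 16.3%, was 10.3% with reciprocal overlap, 14.5% and 6.22% with −log10 q of at least 2 and 5 in both lists, and 37.7% by fold or 49.9% by −log10 q with the equally long list. For the strongest quintile, 35.5% became 25.3% with reciprocal overlap, 31.2% and 14.2% with −log10 q of at least 2 and 5, and 47.0% when ranked by −log10 q. For the weakest quintile, 7.50% became 3.26% with reciprocal overlap, 5.30% with −log10 q of at least 5 and 2.94% when ranked by −log10 q. The strongest quintile stayed above the weakest under each of these settings.

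The promoter share of second-round peaks found in both rounds, 71.3%, was 62.6% within 500 bp, 80.4% within 3000 bp, 64.7% with TSSs of protein-coding genes and 66.4% from the midpoint. That of second-round-only peaks, 44.0%, was 59.5% within 3000 bp and 68.8% with reciprocal overlap. That of first-round-only peaks, 54.5%, was 48.2% within 500 bp, 70.9% within 3000 bp, 49.3% with protein-coding genes, 51.9% from the midpoint and 56.5% with −log10 q of at least 2. With every gene within 1000 bp of a peak there were 1098 genes in both rounds, 52 in the second only and 3872 in the first only. Reciprocal overlap gave 447 genes in both rounds and 59 in the second only, and the equally long list by fold 270 genes in both rounds, 422 in the second only and 374 in the first only. The cause of these changes beyond the construction of each setting was not tested. Leaving out a library was not possible with 1 per round. No paired analysis was possible because the compared libraries share no replicate number. Depth is unknown, so absence of a peak from a list cannot be told apart from a signal under its threshold.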

Other observations

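On sequences other than the 6 arms (the Y, unplaced sequences and mitochondrial DNA), the second-round list held 104 peaks and the first-round list 129. A counterpart in the other list was found for 51.0% of these second-round peaks (53 of 104) and 41.1% of the first-round peaks (53 of 129), against 91.9% of second-round and 16.3% of first-round peaks on the arms. How reads that map to several places were treated is not given in the sources used here.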
